A study of Homo sapiens with 6 samples.

Results

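Laminins are the cross-shaped glycoproteins on which basement membranes are built, and the laminin-binding integrins are the receptors through which cells hold on to them. The genes described here are 6 laminin chains (LAMA1, LAMA4, LAMA5, LAMB1, LAMB2 and LAMC1) and 4 integrin chains (ITGA3, ITGA6, ITGA7 and ITGB4), taken by symbol from the 18539 genes of the deposited table. All 10 were found and all 10 passed the filter on low values that left 17194 genes for testing.

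Each laminin is a trimer of an alpha, a beta and a gamma chain that assembles inside the cell, and the alpha chain carries most of the sites that integrins bind. The integrin alpha chains encoded by ITGA3, ITGA6 and ITGA7 pair with the beta 1 chain (ITGB1), and that of ITGA6 also pairs with the beta 4 chain (ITGB4), whose long cytoplasmic tail ties hemidesmosomes to intermediate filaments in epithelia. In melanoma these receptors are known for their part in adhesion to, and movement along, basement membranes and blood vessels.

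Both groups were A375 cells, a human malignant melanoma line with an activating BRAF mutation. They were grown in 10% serum and infected with lentivirus in the presence of polybrene at 8 µg/ml. The shControl group (3 libraries) carried a control short hairpin RNA and the shMMP9 group (3 libraries) a pLKO.1 hairpin against MMP9, the secreted gelatinase matrix metalloproteinase 9. Infected lines were selected with puromycin at 2 µg/ml for 2 weeks. Only 1 hairpin against MMP9 was used, so effects of that hairpin on other transcripts and effects of lower MMP9 cannot be told apart. Whether the replicates were grown as separate cultures is not stated, so p-values reflect only how far these libraries spread, and that spread may be technical. The target of the hairpin is shown because it defines the comparison:

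MMP9 hairpin target: cattcagggagacgcccattt

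It lies in exon 4 of 13 of MMP9, inside the coding sequence, on the plus strand at chr20:46010992-46011012 (GRCh38). Among 206694 annotated transcripts only that of MMP9 (1 transcript) held the full 21 bases. The longest run of the target found in any of the 143 annotated transcripts of the laminin and integrin genes was 10 bases, in ITGA6 and LAMA1.

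Levels are the deposited gene values taken back from the log2 scale ("scaled counts"). Their 75th percentile was equal across libraries to within 45.35 and 45.36, so they were taken as scaled to a common upper quartile. This scaling was read from the values. A fold change is the shMMP9 mean less the shControl mean of log2(scaled count + 1), from limma, with Benjamini-Hochberg adjustment over all 17194 genes and a threshold of 0.05. The libraries held 21854123 to 28005552 estimated reads over the listed genes. MMP9 itself stood at 26.1, 24.3 and 28.7 in the control libraries and at 16.2, 14.6 and 17.1 after knockdown, and its log2 fold change was -0.69 (adjusted p = 1.25e-05, limma). SOX10, the neural crest factor that marks this lineage, had a mean of 378 ± 18.4 in controls and 785 ± 40.6 after knockdown (SD, 3 libraries each), while the pigment cell genes PMEL and MLANA were at 1.76 or less in both group means.

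In the shMMP9 libraries the laminin alpha chains changed places: LAMA5 and LAMA1 fell and LAMA4 rose. The beta and gamma chains LAMB1 and LAMC1 moved by no more than 0.20 on the log2 scale. Among the integrins ITGA6 rose and ITGB4, its partner in hemidesmosomes, fell. Of the 10 genes 4 rose, 5 fell and 1, LAMB1, was not called. The call was also made for 57.5% of all genes tested, 25% higher and 32.5% lower, so a count of 9 in 10 says little by itself, all the more as the genes were chosen with earlier results known. At least 2-fold on the log2 scale and called were 5 of the 10 genes (2 higher, 3 lower), against 8.17% of all genes tested. The median size of the change, whatever its direction, was 1.31 on the log2 scale over the 10 genes and 0.28 over all genes tested. The choice of genes with earlier results known bears on both of these comparisons as well. The 3 shControl and 3 shMMP9 libraries did not overlap for any of the 10 genes, LAMB1 included, and did not overlap for 62.7% of all genes tested. The share of reads from mitochondrial genes also set the groups apart, at 1.65, 1.64 and 1.79% in the shControl libraries and 0.68, 0.71 and 0.62% in the shMMP9 libraries. Its part in the results on these genes was not tested.

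**Figure D1:**
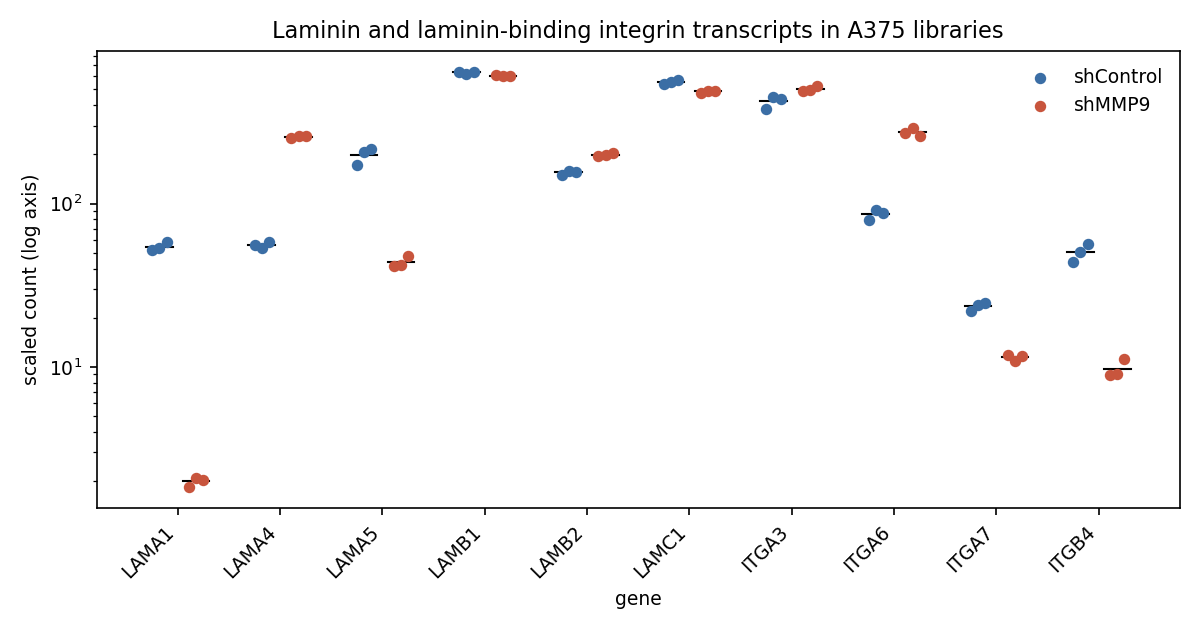
Scaled count (log axis) of each laminin and laminin-binding integrin gene, with 1 point per library (3 shControl in blue, 3 shMMP9 in red) and a black line at the group mean. LAMA1, LAMA5 and ITGB4 lie far lower in shMMP9, LAMA4 and ITGA6 far higher, and LAMB1 and LAMC1 nearly level.

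LAMA1 encodes the alpha chain of the laminin of the early embryo, and is scarce in most adult tissue. Its scaled counts were 51.8, 53.7 and 58.1 in the shControl libraries (replicates 1, 2 and 3, the order kept throughout) and 1.85, 2.10 and 2.03 in the shMMP9 libraries. Every shMMP9 library was thus far below every shControl library. The mean fell from 54.5 ± 3.23 to 1.99 ± 0.132, which is 27.4-fold lower, on 53 to 55 estimated reads per shMMP9 library and 1454 to 1652 per shControl library. The log2 fold change was -4.21 (95% interval -4.41 to -4.02, SE 0.0892, adjusted p = 8.39e-13, limma). Its size depends on the pseudocount at this low level, and was -3.29 with a pseudocount of 4 and -4.71 with limma-voom.

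LAMA5 encodes the alpha chain most widespread in adult epithelial and vascular basement membranes, where it is a strong ligand for the integrins of ITGA3 and ITGA6. Its scaled counts were 173, 206.4 and 214.9 in shControl and 41.2, 42.2 and 47.8 in shMMP9. The control libraries spread more than those of shMMP9, with replicate 1 lowest, and still lay above all of them. The mean fell from 198 ± 22.1 to 43.8 ± 3.57, a log2 fold change of -2.15 (95% interval -2.32 to -1.98, adjusted p = 8.28e-11, limma). LAMA5 (chromosome 20) overlaps ADRM1 on the other strand, and ADRM1 was slightly higher in shMMP9 (224 and 274, log2 fold change 0.29). How the counting treated strand is not given in the sources used here.

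LAMA4 encodes the short alpha chain found in vessel walls, muscle and nerve, and in mesenchymal cells. Its scaled counts were 55.5, 53.2 and 58.1 in shControl and 252.4, 258.2 and 258.6 in shMMP9. The libraries within each group were close together, and the groups were far apart. The mean rose from 55.6 ± 2.45 to 256 ± 3.47, 4.61 times the control level, with a log2 fold change of 2.19 (95% interval 2.08 to 2.29, adjusted p = 1.15e-12, limma).

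LAMB1 and LAMC1 encode the beta and gamma chains of the commonest laminin trimers, and LAMB2 a second beta chain known from muscle, nerve and kidney. LAMB1 was at 638.2, 620.4 and 642.3 in shControl and at 614, 600 and 603.6 in shMMP9. This small gap did not pass the test (log2 fold change -0.06, 95% interval -0.17 to 0.04, adjusted p = 0.259, limma). LAMB1 overlaps DLD on the other strand, for which the log2 fold change was 0.16. LAMC1 was at 537.9, 555.2 and 573.6 in shControl and at 477.6, 486.9 and 490.4 in shMMP9. It fell by 0.20 on the log2 scale (adjusted p = 0.00334), that is from 556 ± 17.9 to 485 ± 6.61. LAMB2 was at 150.3, 158.7 and 156.4 in shControl and at 195.5, 199.5 and 203.1 in shMMP9, a rise of 0.36 (95% interval 0.26 to 0.46, adjusted p = 1.71e-05). These 3 genes moved by less than 1.3-fold, against at least 4.53-fold for the 3 alpha chains.

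ITGA6 encodes the integrin alpha 6 chain, a receptor for most laminins. Its scaled counts were 79.3, 90.8 and 88.2 in shControl and 268.4, 290.7 and 259.6 in shMMP9. Every shMMP9 library exceeded every shControl library. The mean rose from 86.1 ± 5.99 to 273 ± 16.0, 3.17 times the control level (log2 fold change 1.65, 95% interval 1.52 to 1.78, adjusted p = 8.11e-11, limma). The table has 1 value per gene, so the splice forms of the alpha 6 tail were not analysed here.

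ITGB4 encodes the integrin beta 4 chain, which pairs with alpha 6 alone. Its scaled counts were 43.8, 50.7 and 56.8 in shControl and 8.97, 9.04 and 11.2 in shMMP9. Here too the groups lay apart, in the direction opposite to that of ITGA6. The mean fell from 50.4 ± 6.5 to 9.75 ± 1.29, 5.18-fold lower (log2 fold change -2.26, 95% interval -2.48 to -2.04, adjusted p = 6.9e-10, limma). Per kilobase of exon the ratio of ITGA6 to ITGB4 within a library was 1.87, 1.85 and 1.61 in shControl and 31.0, 33.3 and 23.9 in shMMP9. The alpha 6 transcript thus exceeded that of its beta 4 partner by at most 1.87-fold in each control library and by at least 23.9-fold in each shMMP9 library.

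ITGA3, whose product binds LAMA5-containing laminins, and ITGA7, a laminin receptor best known from muscle, moved less. ITGA3 was at 378.8, 449.4 and 438.3 in shControl and at 485.5, 498.2 and 520.1 in shMMP9, a rise of 0.25 on the log2 scale (95% interval 0.11 to 0.39, adjusted p = 0.00426, limma). ITGA7 was at 21.88, 23.98 and 24.57 in shControl and at 11.9, 10.8 and 11.7 in shMMP9. It fell from 23.5 ± 1.41 to 11.5 ± 0.581, a log2 fold change of -0.97 (adjusted p = 3.08e-07). ITGA7 (chromosome 12) overlaps METTL7B, BLOC1S1 and BLOC1S1-RDH5 on the other strand, whose log2 fold changes were 0.53, 0.17 and 0.14. ITGB4 overlaps GALK1 on the other strand in the same way, and GALK1 stood at -0.29. None of these 4 fell as far as the integrin gene it overlaps.

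Levels can be set between genes per kilobase of exon, using the merged exons of GENCODE release 29. In shControl the order from high to low was LAMB1 (77.8 ± 1.43), LAMC1 (66.1 ± 2.13), ITGA3 (43.1 ± 3.88), LAMB2 (22.6 ± 0.629), LAMA5 (13.9 ± 1.55), ITGA6 (13.2 ± 0.917), ITGB4 (7.46 ± 0.961), LAMA4 (4.80 ± 0.212), ITGA7 (3.68 ± 0.222) and LAMA1 (3.44 ± 0.203), in scaled counts per kilobase (SD, n = 3). The libraries of LAMA5 and ITGA6 overlapped, as did those of ITGA7 and LAMA1, and all other neighbours in the order were apart. In shMMP9 no neighbours overlapped. ITGA6 had moved up to rank 4 (41.8 ± 2.46) and LAMA4 to rank 6 (22.2 ± 0.300), while ITGB4 was at rank 9 (1.44 ± 0.190) and LAMA1 at rank 10 (0.126 ± 0.00830). With the longest transcript in place of merged exons ITGA3 came before LAMC1 in both groups, and LAMA4 before LAMB2 in shMMP9. By either length LAMB1 was highest and LAMA1 lowest, and the beta and gamma chains LAMB1 and LAMC1 exceeded every laminin alpha chain.

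Within the alpha chains, of which LAMA2 and LAMA3 were measured as well, LAMA5 held 58.3, 63.0 and 61.7% of the per-kilobase total in shControl and 11.5, 11.5 and 12.7% in shMMP9. LAMA4 held 23.1, 20.1 and 20.6% in shControl and 86.6, 86.6 and 85.1% in shMMP9. LAMA1 held 15.2% ± 0.496 in shControl and 0.488% ± 0.0258 in shMMP9 (SD, n = 3). The predominant alpha transcript was therefore LAMA5 in all 3 control libraries and LAMA4 in all 3 shMMP9 libraries. The summed alpha level moved much less, from 22.7 ± 1.81 to 25.7 ± 0.544 scaled counts per kilobase of merged exons. At the transcript level the change thus lay more in which alpha chain predominated than in the alpha sum. With the longest transcript as length, LAMA4 went from 8.49 to 39.2, LAMA5 from 17.3 to 3.83 and LAMA1 from 5.26 to 0.192. The net rise by that length was larger. The within-library ratio of LAMA4 to LAMA5 went from 0.349 ± 0.0413 to 7.26 ± 0.509.

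Among the beta chains the share of LAMB3, the beta chain of the epidermal laminin, was lower after knockdown. LAMB3 held 29% ± 2.24 of the beta total in shControl and 11.7% ± 0.0871 in shMMP9, LAMB1 55.0% ± 2.18 and 63.5% ± 0.549, and LAMB2 16.0% ± 0.301 and 24.8% ± 0.507. Since LAMB1 itself was not called, its larger share goes with the lower level of LAMB3. LAMC1 held at least 98.1% of the gamma total in every library. Among the integrin alpha chains ITGA6 held 22.0% ± 0.345 in shControl and 44.1% ± 1.96 in shMMP9, and ITGA3 71.8% ± 0.497 and 54.0% ± 1.88. The sum of ITGA3, ITGA6 and ITGA7 went from 59.9 ± 5 to 94.7 ± 2.28 scaled counts per kilobase. For 14 of the 15 shares computed the groups did not overlap, and the two-sided exact permutation test gave each of these p = 0.1, the smallest that 3 against 3 libraries allow (0.107 adjusted over the 15 shares). LAMA3 was the exception (exact p = 0.2).

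**Figure D2:**
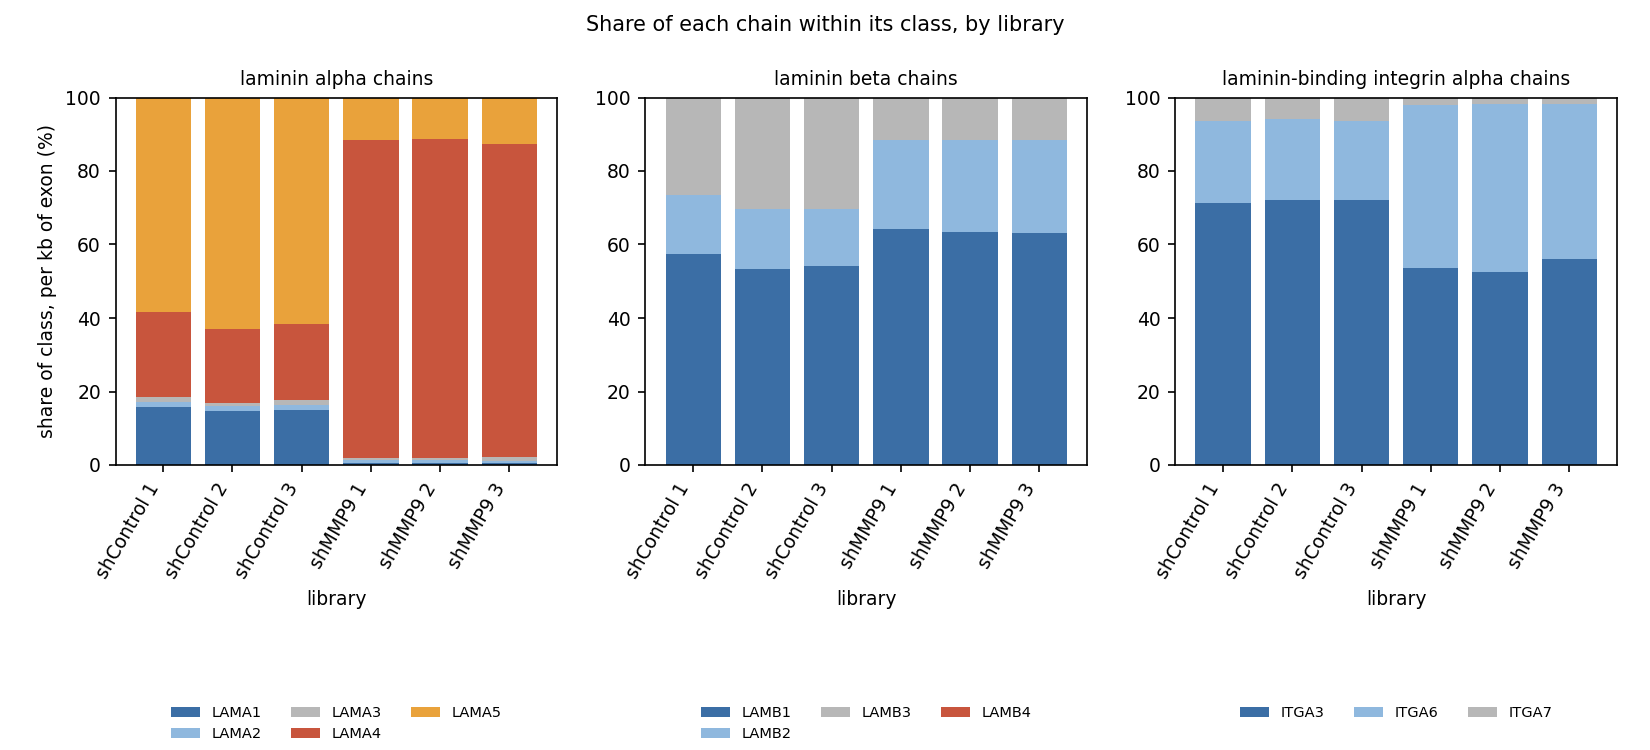
Share (%) of each chain in the summed level per kilobase of exon of its class, with 1 bar per library, for the laminin alpha chains, the laminin beta chains and the laminin-binding integrin alpha chains. LAMA5 holds 58.3 to 63.0% of the alpha chains in shControl and LAMA4 85.1 to 86.6% in shMMP9, and ITGA6 goes from about 22.0% to 44.1% of the integrin alpha chains.

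The other laminin chains moved downward where they moved. Of 6 genes 5 were tested, and 4 fell and none rose, against 32.5% lower and 25% higher over all genes tested. LAMB3 went from 193 ± 20.9 to 64.1 ± 0.812 (log2 fold change -1.57, adjusted p = 4.27e-10, limma). LAMA2, the muscle alpha chain, stood at -0.50, with means of 3.29 in shControl and 2.03 in shMMP9. LAMC3, a gamma chain, stood at -0.44 and was close to the floor, with means of 0.732 and 0.286. At a threshold of 0.01, or without shMMP9 replicate 2, the number lower in this list was 3. LAMA3, the alpha chain of the epidermal laminin, was weak (3.78 ± 0.960 and 2.90 ± 0.772) and was not called (adjusted p = 0.172). LAMB4 was too low to be tested.

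Among 12 further laminin receptors and integrin partners 6 rose and 6 fell, against 25% higher and 32.5% lower over all genes tested. ITGB1, the beta 1 chain with which all 3 integrin alpha chains pair, was at 294.5, 270.5 and 278 in shControl and 331.8, 331.6 and 317 in shMMP9, a rise of 0.22 (adjusted p = 0.0019, limma). Per kilobase, ITGB4 stood at 0.160 ± 0.0253 of the ITGB1 level in shControl and at 0.0266 ± 0.00425 in shMMP9. ITGA6 stood at 0.283 ± 0.0314 and 0.768 ± 0.0337 of it. Set against the ITGB1 level, ITGB4 and ITGA6 moved apart much as they did in absolute level, ITGB1 itself having changed little. BCAM, the Lutheran glycoprotein, a receptor for laminins with the LAMA5 chain, went from 83.2, 85.1 and 83.8 to 10.8, 10.5 and 12.2. Its log2 fold change of -2.81 (adjusted p = 2e-12) was in the same direction as that of LAMA5. DAG1, which encodes dystroglycan, rose from 253 ± 13.2 to 431 ± 7.90 (log2 fold change 0.77). The collagen- and laminin-binding integrin genes ITGA2 and ITGA1 rose by 1.42 and 0.92.

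**Figure D3:**
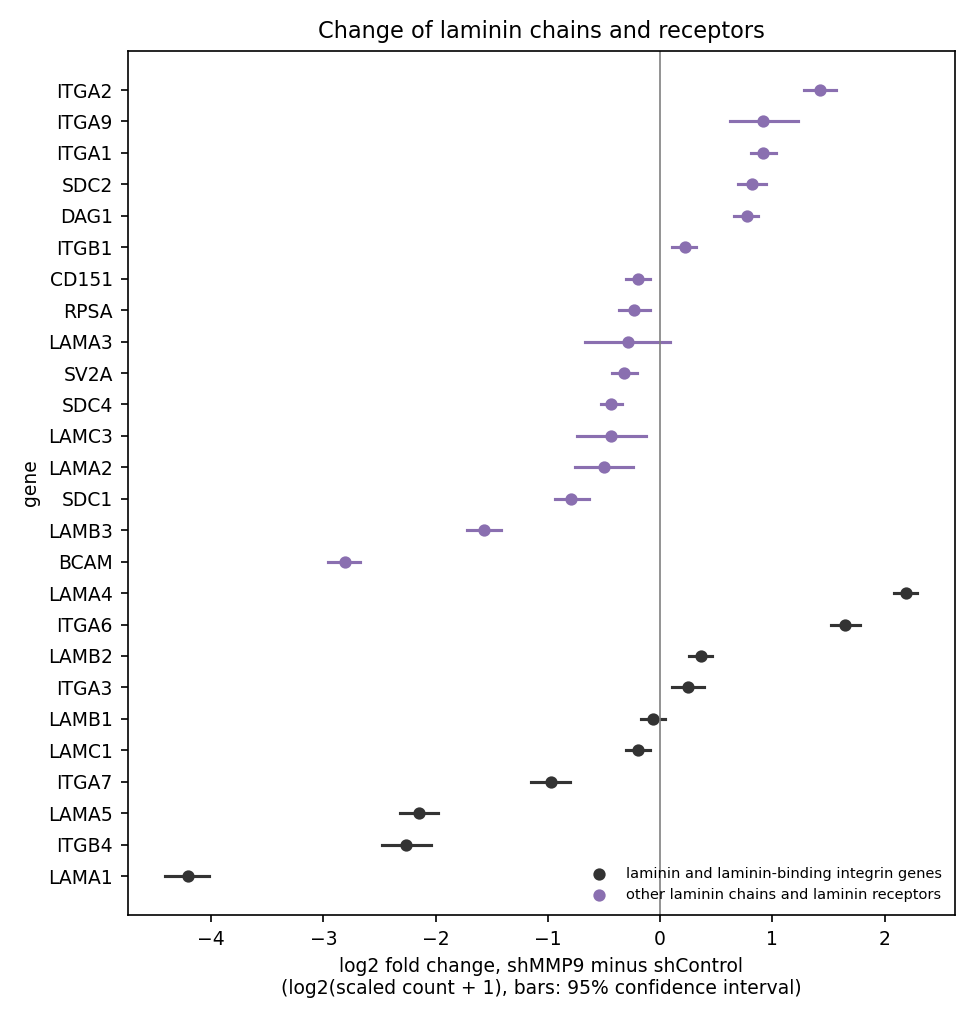
Log2 fold change (shMMP9 minus shControl, on the log2(scaled count + 1) scale) with its 95% confidence interval from limma for the laminin and laminin-binding integrin genes (black) and for other laminin chains and receptors (purple). Values run from -4.21 for LAMA1 to 2.19 for LAMA4, and the intervals of LAMB1 and LAMA3 include 0.

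The basement membrane proteins that bind or border laminins were mixed, with 7 of 19 tested genes higher, 8 lower and 4 not called. The shares over all genes tested were 25% higher and 32.5% lower. The collagen IV genes COL4A1 and COL4A2 and the laminin-binding NID1 rose by 0.53, 0.29 and 0.19. Of the scarcer collagen IV genes COL4A4 rose from 0.409 ± 0.0189 to 1.15 ± 0.175 (log2 fold change 0.61, made smaller by the added 1 at this level). COL4A5 fell from 6.10 ± 1.28 to 3.72 ± 0.139 (log2 fold change -0.57). COL4A6 was not called (-0.04, adjusted p = 0.854, limma). AGRN, which encodes agrin, fell from 806 ± 105 to 301 ± 27.6 (log2 fold change -1.41), and HSPG2, which encodes perlecan, from 189 ± 11.9 to 139 ± 9.11. PXDN, the peroxidase that crosslinks collagen IV, stood at -1.49 and the fibulin gene EFEMP1 at -2.37.

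In the list of hemidesmosome plaque and partners, the structures that ITGB4 anchors, 1 of 4 tested genes rose and 2 fell. COL17A1, a hemidesmosomal collagen, went from 4.68 ± 0.310 to 1.71 ± 0.348, and PLEC, the plectin gene, from 1080 ± 161 to 829 ± 34.0 (log2 fold changes -1.07 and -0.37). DST was not called (-0.11, adjusted p = 0.139, limma). KRT14, a basal keratin, rose by 2.04. Of 23 genes of the integrin adhesion complex 13 fell, 4 rose and 6 were not called. Over all genes tested 32.5% were lower and 25% higher. Over the alternative settings the number lower in this complex ran from 9, at a threshold of 0.01, to 14, without shControl replicate 1. It was 10 with median-of-ratios scaling, total-read scaling and limma-voom. Over all genes tested the number lower fell as well, from 5584 to 4946, 4898 and 4842 in that order. The list median was -0.17 against -0.05 over all genes tested. VCL, the vinculin gene, went from 184 ± 9.95 to 71.1 ± 1.28 (log2 fold change -1.36), TNS1, a tensin gene, stood at -1.85 and TLN2, a talin gene, at -1. FERMT1, a kindlin gene, rose by 0.72.

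A bulk library cannot tell fewer cells of a type from less RNA per cell, so markers of other cell types were read beside these results. All libraries came from the A375 line, so the markers are read as transcripts of these cultures and not as numbers of such cells. Of 9 keratinocyte markers 4 had values, summing to 72.8 to 84.9 in shControl and 133 to 141 in shMMP9, most of it KRT10; all 3 tested were higher, and KRT5 was at 0.370 and 0.0367. Fibroblast markers (8 of 8 with values) summed to 46.4 to 52.9 and 27.1 to 30.0, with 1 of 5 tested higher and 4 lower. Most of the control level was PDGFRB (means 21.4 in shControl and 15.5 in shMMP9) and COL1A1 (18.4 and 3.15). PDGFRA rose (2.16 and 5.46), and COL1A2 and COL3A1 were at 0.393 or less. Endothelial markers (6 of 8) summed to 55.9 to 64.8 and 22.1 to 25.7, with 2 of 6 tested higher and 2 lower. Most of the control level was TIE1 (means 49.9 and 4.56), while KDR rose (6.44 and 16.1). CDH5 and VWF were at 1.01 or less. Leukocyte markers (3 of 8) summed to 114 to 135 and 98 to 101, most of it CD68, with 1 of 3 tested higher and 1 lower. Among 10 melanoma and neural crest markers 8 had values, summing to 478 to 530 and 933 to 1030, with 3 of 6 tested higher and 2 lower. SOX9 fell from 28.8 ± 1.14 to 0.923 ± 0.306, while NGFR and S100B rose by 1.32 and 1.48. The part of these shifts in the laminin and integrin results was not tested.

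LAMA1 (ENSG00000101680.14, minus strand, chr18:6941744-7117814 on GRCh38) lies among other genes that were lower. Of 258 other genes tested on chromosome 18, 65.1% were lower and 10.5% higher, with a median of -0.42. On the log2(scaled count + 1) scale LAMA1 was the lowest of all 259. Within 1 megabase of it 5 genes were tested, of which 4 fell and none rose. The nearest protein-coding neighbours were ARHGAP28 at -1.55, and PTPRM, a receptor phosphatase gene, at -1.87. The noncoding LINC00668 stood at -2.01. Within 2 megabases 10 of 12 fell, with EPB41L3, a gene of the membrane skeleton named after its value was seen, going from 19.9 to 0.261. Its log2 fold change was -4.06. By the ratio of means EPB41L3 fell further than LAMA1, since the added 1 weighs most at low levels. LAMA1 and its neighbours thus fell together, and the part of the chromosome-wide shift in the fall of LAMA1 was not tested.

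**Figure D4:**
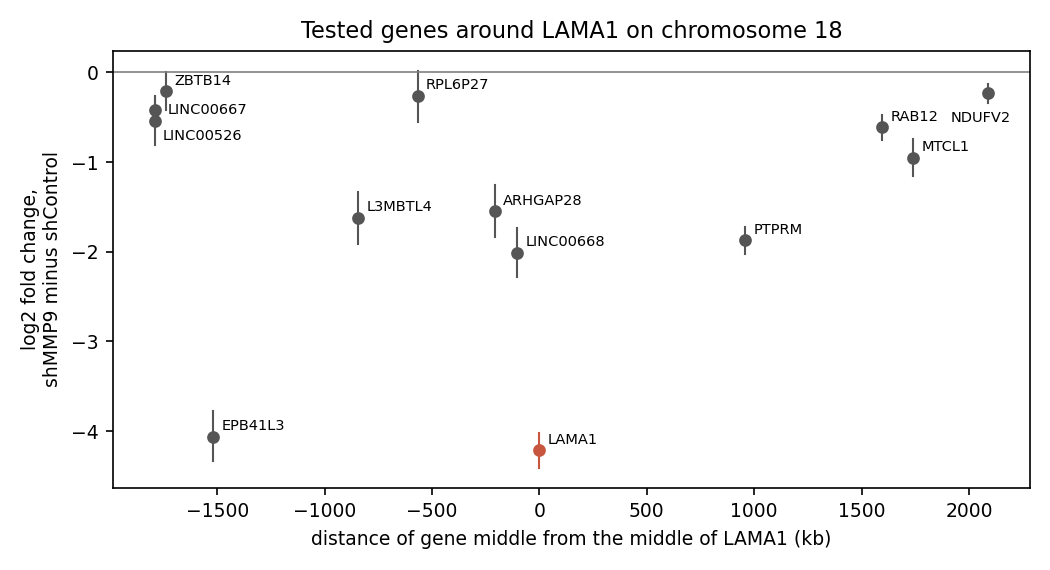
Log2 fold change (shMMP9 minus shControl, points, with 95% confidence intervals as bars) of the tested genes within 2 megabases of LAMA1, against the distance between gene middles in kilobases. LAMA1 is in red at -4.21, and every gene shown has a value below 0, with RPL6P27 and ZBTB14 not called.

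Around each of the other 9 genes the tested neighbours within 1 megabase moved in both directions, with medians between -0.17 and 0.16. Over the 1 megabase windows of all 10 genes together 24.5% of 306 tested genes were higher and 31.7% lower, near the 25% and 32.5% of all genes. Of the 20 nearest protein-coding neighbours 8 rose, 7 fell and 5 were not called. Next to ITGA6 on chromosome 2 (ENSG00000091409.14, plus strand, chr2:172427354-172506282) the homeobox gene DLX2 rose by 1.88, from 7.65 to 30.8, and PDK1 on its other side stood at -0.17. Next to LAMB1, which was not called, the neural adhesion gene NRCAM rose by 2.42. Beside LAMA4 (ENSG00000112769.18, minus strand, chr6:112108760-112254939) both nearest neighbours fell, FAM229B at -0.90 and MARCKS (1600 kilobases away) at -1.24, while LAMA4 rose. Positions of the other genes are ITGA3 at chr17:50055968-50090481 (plus strand), ITGA7 at chr12:55684568-55716043 (minus), ITGB4 at chr17:75721328-75757818 (plus), LAMA5 at chr20:62307955-62367312 (minus), LAMB1 at chr7:107923799-108003255 (minus), LAMB2 at chr3:49121114-49133118 (minus) and LAMC1 at chr1:183023460-183145592 (plus).

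RefSeq start sites (GRCh38.p14) were matched for 6 of the 10 genes: ITGA6, LAMA4, LAMA5, LAMB1, LAMB2 and LAMC1. Upstream sequence is shown for 3 genes whose 250 bases before the start held no annotated exon, namely LAMA5, which fell, ITGA6, which rose, and LAMC1, which moved little. Capitals mark matches, on either strand, to the GC box (GGGCGG) or the E-box (CACGTG); the AP-1 motif (TGANTCA) and the TEAD motif (GGAATG) were searched as well.

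LAMA5, chr20:62367313-62367562, minus strand: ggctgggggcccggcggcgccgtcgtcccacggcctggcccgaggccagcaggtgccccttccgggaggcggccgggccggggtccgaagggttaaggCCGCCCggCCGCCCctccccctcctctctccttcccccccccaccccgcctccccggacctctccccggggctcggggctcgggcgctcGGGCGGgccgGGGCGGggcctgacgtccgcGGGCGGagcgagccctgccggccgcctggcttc

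ITGA6, chr2:172427086-172427335, plus strand: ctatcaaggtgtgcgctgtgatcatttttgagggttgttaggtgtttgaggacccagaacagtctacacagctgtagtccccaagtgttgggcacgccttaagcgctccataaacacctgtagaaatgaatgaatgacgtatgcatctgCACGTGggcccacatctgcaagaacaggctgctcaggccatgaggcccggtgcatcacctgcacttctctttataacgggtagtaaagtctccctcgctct

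LAMC1, chr1:183023170-183023419, plus strand: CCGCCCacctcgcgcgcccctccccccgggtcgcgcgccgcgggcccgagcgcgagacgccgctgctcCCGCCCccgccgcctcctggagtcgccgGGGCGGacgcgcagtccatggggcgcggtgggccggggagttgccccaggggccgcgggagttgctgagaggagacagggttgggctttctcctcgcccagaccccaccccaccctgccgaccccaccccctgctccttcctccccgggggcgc

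The LAMA5 window held 5 GC boxes and the LAMC1 window 3, while the ITGA6 window before its first listed start held none and 1 E-box. The window before the second listed start of ITGA6, not printed because it overlaps annotated exons, held 3 GC boxes at 71.6% G and C. GC boxes occurred in 42.6% and E-boxes in 6.34% of 35116 such windows. The G and C content was 82.8% before LAMA5, 79.6% before LAMC1 and 50.8% before the first listed start of ITGA6. The window of LAMA4, not printed for the same reason, held none of the 4 motifs at 48.4% G and C. AP-1 letters (6.57% of all windows) and TEAD letters (11.9%) were in no window of the 6 genes. A match describes letters in a window and not binding.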

How the data were processed

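Total RNA of 6 A375 libraries was analysed, 3 shControl and 3 shMMP9, with groups and replicate numbers from the sample titles. STAR 2.6.1d and Partek were used with hg38, per the submitters' processing notes; how reads were counted, with which annotation, strand setting and filter, is not given in the sources used here. Values are deposited as log2, 1 per gene and library. Taken back to scaled counts, the 75th percentile was 45.35 or 45.36 in all libraries, and 64.6 to 67.7% of values are whole multiples (within 0.01) of the smallest, taken as 1 read. The rest are fractions, so the values were not treated as raw counts.

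Limma 3.58.1 in R 4.3.3 was fitted with a variance trend to the deposited log2 values (pseudocount 1) of 17194 genes, after removing 1345 that lacked 10 estimated reads at median depth in 3 libraries and 15 in total. Adjusted p-values are Benjamini-Hochberg over all genes tested. The fit was first tested on simulated data. Exon lengths and positions came from GENCODE release 29 on GRCh38, which matched 99.9% of symbols, and start sites from RefSeq. The 10 genes and the gene lists (6 of the pathway, 85 genes, 80 tested; 5 of cell type markers) were chosen with earlier results of these data known. Named genes are the 10, MMP9, ITGB1, DAG1, up to 4 genes per list with the smallest adjusted p, and the nearest protein-coding neighbours; genes overlapping the 10 or near LAMA1 and other list members named (LAMA3, LAMB4, HSPG2, COL4A2, COL4A4, COL4A5, COL4A6, NID1 and markers at low level) illustrate a role and were chosen after their values were seen. Chi-square per gene on estimated reads between replicates ran from 2.51 to 14.1, so no libraries were treated as duplicates. A few results for listed genes are not reported here. Figures used matplotlib 3.10.9.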

Additional observations from a re-analysis of the deposited data

How the results depend on the processing

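Over 15 alternatives, the same 9 genes passed the test in the same direction and LAMB1 passed in none (log2 fold change -0.08 to -0.01, adjusted p = 0.197 to 0.929, limma). These were a replicate block, omission of each library, scaling by median-of-ratios or by total reads, no filter, limma-voom, pseudocounts of 0.25 and 4, a threshold of 0.01 and, chosen after seeing the data, no variance trend. With the replicate block 4 genes were higher and 5 lower, as without it; same-numbered libraries did not deviate together (correlations of 0.04, -0.13 and -0.03), and of the 6 libraries 1, shMMP9 replicate 1, correlated best with its own number. Ranges were 1.60 to 1.72 for ITGA6, 2.13 to 2.27 for LAMA4, -2.24 to -2.08 for LAMA5, -2.35 to -1.98 for ITGB4 and -4.71 to -3.29 for LAMA1. ITGA3 had the highest adjusted p of the 9 (0.17 to 0.31, adjusted p up to 0.0338, limma). LAMC1 was close to it (-0.22 to -0.14, adjusted p up to 0.0291, limma). Its fall was smallest, at -0.14, with median-of-ratios or total-read scaling and with limma-voom. Of the 80 tested genes of the pathway lists 22 to 25 were higher (24 in the main fit) and 32 to 43 lower (38). Over all genes tested the main fit had 25% higher and 32.5% lower. The numbers over all genes moved with the settings as well, with 3379 to 4988 higher and 4428 to 5723 lower. Without length correction, or with the longest transcript, the LAMA4 share was higher by 65.8 and 62.9 percentage points (64.8 as reported) and the ITGA6 share by 18.5 and 18.4 (22.1). Median-of-ratios scaling moved the median of all genes from -0.05 to 0. LAMA1 in shMMP9 rests on 53 to 55 estimated reads per library, which limits its fold change more than that of the other genes.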

Other observations

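Dystroglycan binds laminin through a sugar chain that a series of enzymes builds, and the genes of that series were mixed. Of 17 tested 6 rose, 5 fell and 6 were not called, against 25% higher and 32.5% lower over all genes tested. POMT1, which starts the chain, stood at -0.59 and POMGNT2 at -0.46, while DPM1, which supplies its mannose, rose by 0.40. Without shControl replicate 1 the number lower was 8.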
